A study of Mus musculus with 2 samples.

Results

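Neurons are rich in a set of microRNAs (miRNAs). These short RNAs guide the silencing complex to messenger RNAs and lower their output. Enriched here does not mean confined to neurons, and which cells of the striatum gave each signal was not tested. The 8 neuron-enriched miRNAs described here are miR-124-3p, miR-128-3p, miR-9-5p, miR-9-3p, miR-135a-5p, miR-137-3p, miR-138-5p and miR-153-3p. They are 8 of the 3200 rows of the deposited array table, taken by identifier. The rule uses no measured value, but it was written with earlier results of these data known. Their levels were compared between the striatum of an R6/2 sample and that of a wild-type sample, both from males aged 10 weeks. The R6/2 transgene holds the start of the human huntingtin gene with an expanded CAG repeat, driven by the human huntingtin promoter, and the line serves as a model of Huntington's disease. In the human disease the projection neurons of the striatum are the cells most affected. The labels give no strain, number of animals or pooling for either sample. Each genotype has 1 single-colour 3D-Gene mouse miRNA array, so no value below has a replicate error, no test was possible and every difference is between 2 arrays.

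Rows of the table carry mature-miRNA identifiers as miRBase writes them and nothing else. Those identifiers climb by 1 at all 3199 steps, although miRBase numbers are shared among species. Names are therefore used only for the first 45 rows, identifiers MIMAT0000121 to MIMAT0000165, which are all mouse miRNAs in miRBase. Whether each of these rows holds the probe for the miRNA of its identifier could not be tested with the files used here, and every result below depends on it. Of the 45 names, 35 were found in the RefSeq miRNA table of GRCm38.p6, including 7 of the 8 neuron-enriched ones.

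As background, miR-124 is among the most abundant miRNAs of the brain, and it lowers transcripts of non-neuronal genes, such as the splicing regulator Ptbp1, as neurons differentiate. Both arms of miR-9 act in neurogenesis and target parts of the REST repressor complex, which in turn silences neuronal genes, miRNA genes among them. The others act more on the excitability and synapses of mature neurons. miR-128 restrains excitability, miR-137 acts on synaptic vesicle release and dendrite growth, and miR-138 limits dendritic spine size in rat neurons. miR-153 lowers proteins of vesicle release, and miR-135a lowers the serotonin transporter in mouse neurons.

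The mature sequences are shown because each miRNA recognises its messenger RNAs mainly through the seed, bases 2 to 8 from the 5′ end, which is in capitals. They are given 5′ to 3′, from RefSeq on GRCm38.p6.
miR-128-3p: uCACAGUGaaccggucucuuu
miR-153-3p: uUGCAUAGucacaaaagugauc
miR-9-5p: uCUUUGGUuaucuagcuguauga
miR-9-3p: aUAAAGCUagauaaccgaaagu
miR-138-5p: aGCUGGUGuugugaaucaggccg
miR-135a-5p: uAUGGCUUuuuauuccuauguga
miR-137-3p: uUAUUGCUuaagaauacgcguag
The 7 seeds printed here all differ, and none is the seed of another matched row among the 45. Their G and C content ran from 30.4% in miR-135a-5p to 56.5% in miR-138-5p. Across the 32 of the 45 named rows that have a sequence and are among the 685 brighter rows, G and C content and log2 ratio had a Spearman correlation of 0.19 and a Pearson correlation of 0.029, a description of rows that share both arrays.

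The miRNAs come from separate places in the genome (GRCm38.p6). miR-128-3p has 2 gene copies, at chr1:128202404-128202424 on the plus strand within the bounds of R3hdm1 and at chr9:112118644-112118664 on the minus strand within Arpp21, a gene known for its expression in striatal projection neurons. miR-153-3p comes from chr12:117250860-117250881, plus strand, within Ptprn2, which codes for a protein of dense-core vesicles, and within the non-coding gene Gm5441. miR-137-3p, at chr3:118433901-118433923 on the plus strand, lies within no other gene of the annotation table. miR-138-5p has 2 copies, on chromosomes 8 (within Nup93) and 9, and miR-135a-5p has 2, on chromosomes 9 (within Glyctk and D030055H07Rik) and 10. The genes for miR-124 are on chromosomes 14, 3 and 2, and those on 14 and 3 lie within the non-coding host genes Mir124a-1hg and Mir124-2hg. Both arms of miR-9 come from the same 3 hairpins, on chromosomes 3, 7 and 13, each within a long non-coding gene. The array signal of a mature miRNA does not tell its gene copies apart.

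The Mir9-1 hairpin (chr3:88215598-88215686, plus strand) is shown because both arms were measured, with miR-9-5p and then miR-9-3p in capitals.
Mir9-1 hairpin: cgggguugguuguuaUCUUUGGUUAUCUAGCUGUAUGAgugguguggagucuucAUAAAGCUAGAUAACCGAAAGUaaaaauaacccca

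Of the 3200 rows, 1650 held a value in the R6/2 array, 1376 in the wild-type array and 1369 in both. Deposited intensities were in general higher in the R6/2 array, with a median log2 ratio of R6/2 over wild-type of 0.30 over the 1369 rows (1.23-fold) and 0.21 over the 343 rows brightest by mean log2 intensity (1.15-fold). Each ratio is therefore given as deposited and relative to these medians. Both arrays have the same median intensity, 25, over their own filled cells, and the R6/2 array has more filled cells. Equal medians over unlike sets of cells do not put the shared rows on a common level, so the shift is no measure of the tissue by itself. How much of the general shift comes from the scaling and how much from the tissue cannot be told apart with 1 array per genotype.

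All 8 neuron-enriched miRNAs had a value in both arrays, so no member was lost to a blank cell. While most rows were higher in R6/2, 6 of the 8 had a lower intensity in R6/2 striatum, with miR-128-3p and miR-153-3p furthest down, and 2 a higher one, miR-137-3p and miR-135a-5p. Their median log2 ratio was -0.13 as deposited, against 0.30 over the 1369 rows and 0.21 in the 343 brightest rows. Among all 1369 rows 1154 (84.3%) were higher in R6/2, and among the 343 brightest 267 were higher and 76 lower. Relative to the median of all rows, 7 of the 8 were lower and their median was -0.43. On that scale 240 of the 343 brightest rows were lower, and 684 of 1369 by construction. In bulk tissue, fewer cells of a type and less RNA per cell cannot be told apart.

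A difference of at least 1.5-fold downward was seen for 2 of the 8, miR-128-3p and miR-153-3p, where 1.53% of the 1369 rows (21 rows) and 2.92% of the 343 brightest (10 rows) were that far down. Relative to the median of all rows it was the same 2 miRNAs, against a background of 5.41% of all rows and 8.45% of the 343 brightest. At least 1.5-fold upward there were 0 of the 8 as deposited, against 21.5% of all rows and 7.29% of the 343 brightest. Relative to the median of all rows it was again 0, against 9.42% of all rows and 2.92% of the 343 brightest. As 7 of the 8 belong to the 343 brightest rows, these are the closer background for them.

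**Figure D1:**
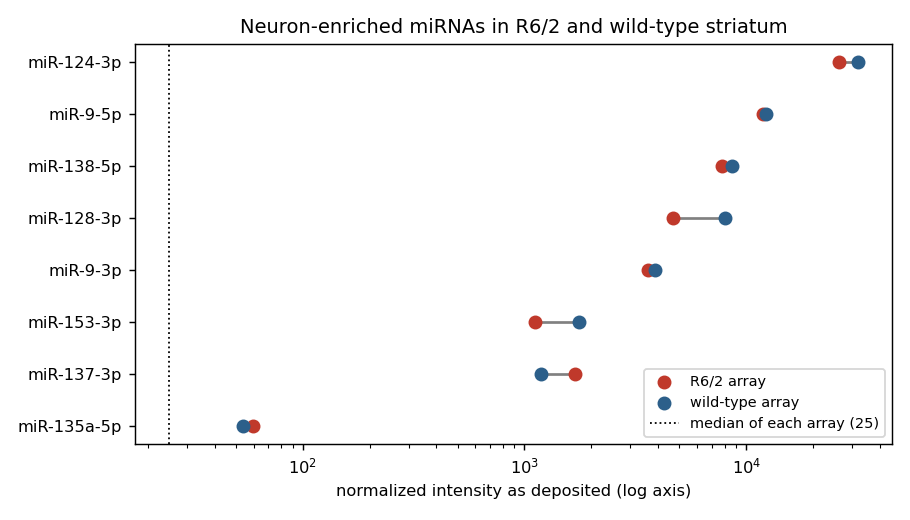
Deposited normalized intensity (log axis) of the 8 neuron-enriched miRNAs in the R6/2 array (red) and the wild-type array (blue), 1 array each, with a grey line joining the values of a miRNA and the median of each array, 25, dotted. The lines for miR-128-3p and miR-153-3p are the longest with the R6/2 point on the left, and miR-137-3p has the longest with it on the right.

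miR-128-3p (MIMAT0000140) had an intensity of 8038.4 in wild-type and 4682.7 in R6/2 striatum. It was thus 1.72-fold (41.7%) lower in the R6/2 array, the lowest ratio of the 8. As deposited its log2 ratio was -0.78, and it was -1.08 relative to the median of all rows and -0.99 relative to that of the 343 brightest. That placed it 10th from the lowest of 1369 rows and 6th from the lowest of the 343 brightest. By brightness within each array it stood at rank 27 in R6/2 and rank 15 in wild-type.

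miR-153-3p (MIMAT0000163) followed with 1752.8 in wild-type and 1119.1 in R6/2 striatum, 1.57-fold (36.2%) lower. As a log2 ratio this was -0.65 as deposited, or -0.95 relative to the median of all rows. It was 16th from the lowest of all rows and 8th from the lowest of the 343 brightest rows. The ratios of miR-128-3p and miR-153-3p differed by 0.13 on the log2 scale.

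miR-124-3p (MIMAT0000134) had the highest intensity of the 8, at 31943.2 in wild-type and 26311.6 in R6/2, rank 4 in both arrays. It was 1.21-fold (17.6%) lower in R6/2, with a log2 ratio of -0.28, or -0.58 relative to the median of all rows. On the latter scale it was 1.498-fold lower and so lay just inside the 1.5-fold limit. Within the 343 brightest rows it was 30th from the lowest of 343, so about 8.45% of bright rows had a lower ratio.

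The remaining lower ones were close to equal in the arrays as deposited. miR-138-5p (MIMAT0000150) had 8629.7 in wild-type and 7787.6 in R6/2, a log2 ratio of -0.15, or -0.45 relative to the median of all rows. miR-9-5p (MIMAT0000142) had 12274 and 11857.8, a log2 ratio of -0.050, or -0.35 relative to that median. Its partner arm miR-9-3p (MIMAT0000143) had 3864.9 and 3595.8, a log2 ratio of -0.10, or -0.41 on the same relative scale.

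Both arms of the hairpin shown above thus had close ratios, 0.054 apart on the log2 scale. Among the 343 brightest rows the log2 ratio ran from -0.20 at the 10th percentile to 0.53 at the 90th, and these 3 values lay within that range, toward its lower end. miR-128-3p, miR-153-3p and miR-124-3p lay below it.

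miR-137-3p (MIMAT0000149) had the highest ratio of the 8, with 1183.7 in wild-type and 1686.4 in R6/2 striatum, 1.42-fold (42.5%) higher. The log2 ratio was 0.51 as deposited, 0.21 relative to the median of all rows and 0.31 relative to that of the 343 brightest rows, so it was the only 1 of the 8 above the general shift. It ranked above 88.0% of the 343 brightest rows and 73.0% of all rows, and was within that middle range of the 343 brightest rows. miR-135a-5p (MIMAT0000147) was the dimmest, at 54 in wild-type and 59.9 in R6/2, above the array median of 25. Its log2 ratio of 0.15 as deposited became -0.15 relative to the median of all rows and -0.056 relative to the 343 brightest rows, so its direction depended on the scale.

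**Figure D2:**
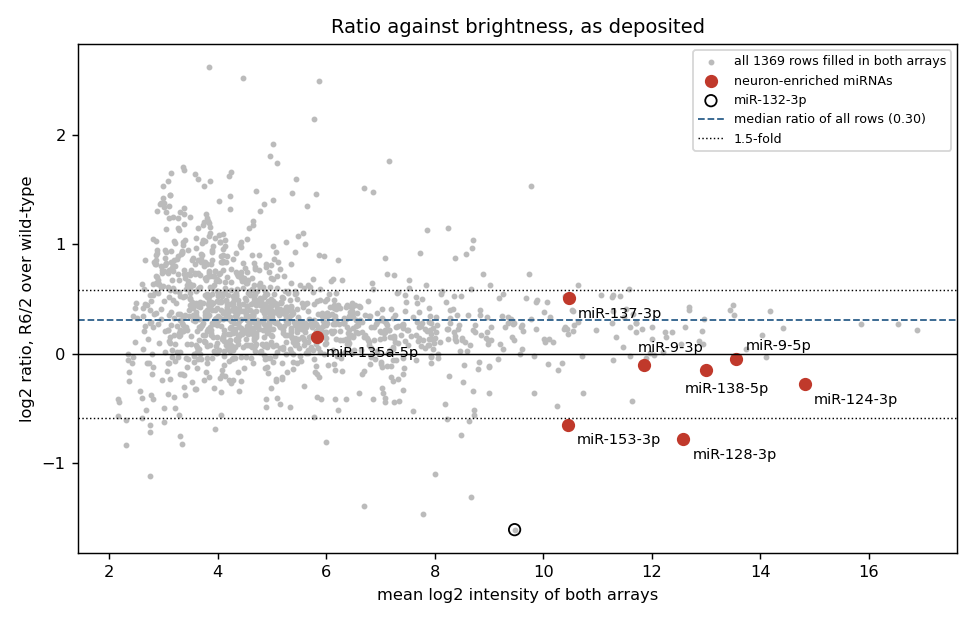
Log2 ratio of R6/2 over wild-type against mean log2 intensity for the 1369 rows filled in both arrays (grey), with the 8 neuron-enriched miRNAs in red and miR-132-3p as an open circle; the dashed line is the median ratio of all rows, 0.30, and the dotted lines mark 1.5-fold. Of the 8, miR-128-3p and miR-153-3p lie below the lower dotted line and miR-137-3p alone lies above the dashed line.

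Differences between members do not depend on any single scaling constant, since it cancels between probes of the same arrays. Of the 28 pairs, the widest was miR-137-3p against miR-128-3p, whose log2 ratios were 1.29 apart, a 2.45-fold divergence between the arrays. miR-137-3p and miR-153-3p were 1.16 apart, although their mean intensities were similar (mean log2 intensities of 10.46 and 10.45). The 8 ratios thus did not lie at 1 common value, and with no replicate the part of that spread that is array error is not known. The ratios of miR-9-5p, miR-9-3p and miR-138-5p lay within 0.098 of each other, those of miR-128-3p and miR-153-3p lay below them, and miR-124-3p fell between.

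Another neuronal miRNA among the named rows, miR-132-3p, which is induced by neuronal activity through CREB, had 1238.9 in wild-type and 406.7 in R6/2 striatum. Its log2 ratio of -1.61 was lower than that of any of the 8. It was the only row outside the 8 listed here as neuronal, and the lists are no full sorting of rows by cell type. The 4 miRNAs of the Dlk1-Dio3 cluster, whose cells of origin were not tested, were all higher in R6/2 as deposited (0.12 to 0.51). Relative to the median of all rows, 3 of those 4 were lower.

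The 37 remaining named rows include lists of miRNAs known from other cell types. Which cells of the tissue gave their signal was not tested. The muscle miRNAs miR-1a-3p and miR-133a-3p and the epithelial miR-141-3p were at 17.1 to 100.3 in R6/2 and 20.2 to 133.7 in wild-type. In the blood and immune list, miR-144-3p, a red-cell miRNA, was at 8.1 in wild-type and 8.2 in R6/2, and miR-155-5p was blank in wild-type and at 8.9 in R6/2. The other 4 ran from 22.6 to 506 in wild-type and from 39.2 to 736.2 in R6/2, with miR-150-5p, a lymphocyte miRNA, the highest. The vessel-wall list ran from 271.4 to 2552.7 in wild-type and from 357.7 to 3228 in R6/2, with miR-126a-3p, an endothelial miRNA, the highest. Probes differ in brightness for equal amounts of RNA, so these intensities rank neither the miRNAs nor the cell types by abundance, and they do not test the labelled tissue.

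Apart from the neuron-enriched set, the list for muscle and epithelium was the only one fixed here with a median ratio below 0 as deposited. The median log2 ratio as deposited was 0.34 in the vessel-wall list (3 rows, 3 higher in R6/2) and 0.41 in the blood and immune list (5 rows with both values, 4 higher). It was 0.28 for let-7, miR-99 and miR-125 (6 of 6 higher), 0.096 for broad and glial miRNAs (7 of 8 higher) and 0.21 for the Dlk1-Dio3 cluster (4 of 4 higher). In the dim muscle and epithelial list it was -0.24 (0 of 3 higher). Relative to the median of all rows, 7 of 8 broad and glial miRNAs were also lower, with a median of -0.21. On that scale the neuron-enriched median was -0.43 (7 of 8 lower). Medians were -0.027 for let-7, miR-99 and miR-125 (4 of 6 lower) and -0.094 for the Dlk1-Dio3 cluster (3 of 4 lower). They were -0.54 for muscle and epithelium (3 of 3 lower), 0.035 for the vessel wall (1 of 3) and 0.10 for blood and immune (2 of 5). Summed intensities were 3212.2 in wild-type and 4036.3 in R6/2 for the vessel-wall list. In the same order they were 694.5 and 983.2 for the blood and immune list, and 212.5 and 169.5 for muscle and epithelium. The R6/2 sum of 983.2 includes miR-155-5p (8.9), which was blank in wild-type. Whether a different mix of cells has a part in the lower neuron-enriched values was not tested.

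**Figure D3:**
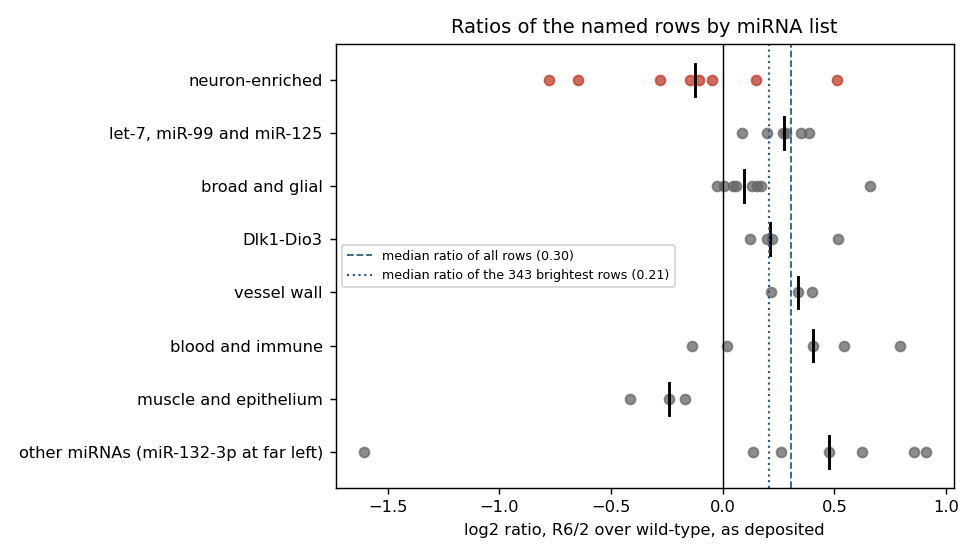
Log2 ratio of R6/2 over wild-type, as deposited, for the 44 named rows with both values, 1 point per row, grouped by miRNA list with the neuron-enriched miRNAs in red and a black bar at each list's median; dashed and dotted lines mark the medians of all rows (0.30) and of the 343 brightest rows (0.21). The neuron-enriched median, -0.13, lies left of 0, as does that of muscle and epithelium, -0.24, and the other lists have medians right of 0.

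Over the 27 other named rows in the 343 brightest rows, the median log2 ratio was 0.22, 24 were higher in R6/2 as deposited, and 1 was at least 1.5-fold lower, miR-132-3p. Among the other named rows within the 685 brighter ones, the highest ratios were those of miR-130a-3p, with 277.4 in wild-type and 520.6 in R6/2 (log2 ratio 0.91), and of miR-152-3p, with 55.6 and 100.6 (0.86). After miR-132-3p the lowest was miR-1a-3p, with 133.7 and 100.3 (-0.41). The rows nearest to the neuron-enriched median of -0.13, a likeness over 2 arrays only, were miR-142a-5p (-0.14), miR-133a-3p (-0.17) and miR-27b-3p (-0.025).

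The direction of 6 of the 8 was the same on all 7 scales computed. These were the deposited values, centring on all 1369 rows, on the 343 brightest rows or on summed intensity, quantile normalization, removal of the trend with intensity, and a pseudocount. The centrings subtract positive values (0.30, 0.21 and 0.19), so a ratio below 0 as deposited must stay below 0 on them. The pseudocount hardly changes bright rows. For the lower miRNAs, the same direction on these scales is therefore no separate support. miR-128-3p lay between -1.08 and -0.78 over 7 scales and miR-153-3p between -0.95 and -0.64, so both were more than 1.5-fold lower on each. miR-9-5p, miR-9-3p and miR-138-5p were lower on all 7, and miR-137-3p was higher on all 7, between 0.21 and 0.51. miR-124-3p was lower on 6 and at 0 after quantile normalization, which gives equal values to equal ranks and so must give 0 to a row with the same rank among the shared rows of both arrays. miR-135a-5p was lower on 5 scales and higher on 2.

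**Figure D4:**
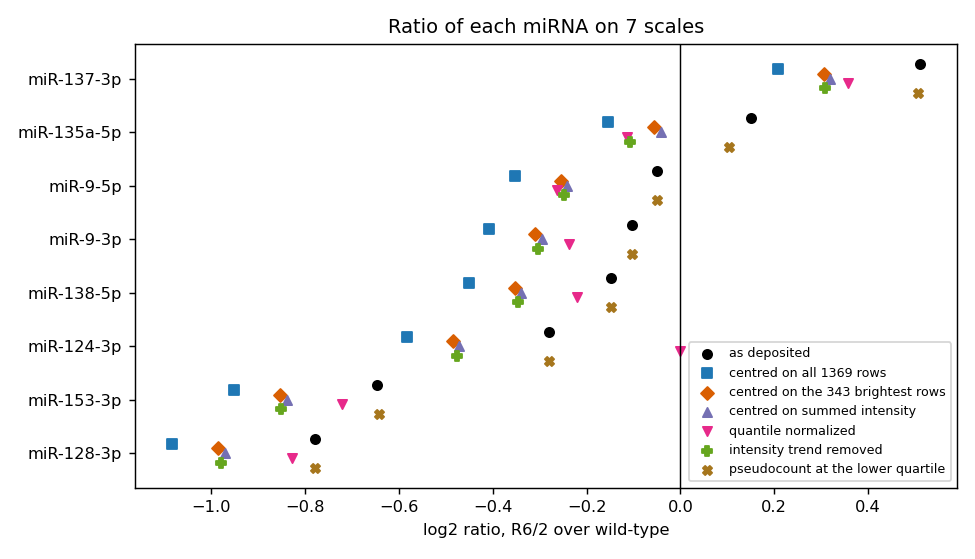
Log2 ratio of R6/2 over wild-type for each of the 8 neuron-enriched miRNAs on 7 scales, 1 symbol per scale, ordered by the ratio as deposited. The symbols of miR-128-3p and miR-153-3p all lie left of -0.64, those of miR-137-3p all lie right of 0.20, and those of miR-135a-5p lie on both sides of 0.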

How the data were processed

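Small RNA of R6/2 and wild-type striatum was measured on 1 array per genotype, labelled with the dye Hy5, per the labels' protocols. The values deposited by the authors are linear normalized intensities with blank cells. How background, scaling and blanks were handled is not given in the sources used, and each array has a median intensity of 25 over its filled cells. Log2 ratios (R6/2 over wild-type) were taken over the 1369 rows filled in both arrays, with no pseudocount. A single array per genotype allows no test, and the number of arrays limits the precision. A call means past 1.5-fold. The members, lists and rules for named rows (all 8 members, miR-132-3p, the 2 highest and 2 lowest of the other named rows among the 685 brighter rows, and the 3 nearest to the members' median) were chosen with earlier results of these data known. Member names follow the selection rule, and other names follow miRBase numbering from background knowledge. Alternatives were 3 centrings, quantile normalization, trend removal by lowess (span 0.4), a pseudocount (each array's 25th percentile, 12.3 in wild-type and 11.3 in R6/2) and a 2-fold limit. The code of the counting step was tested on simulated data with changes larger than 1.5-fold and an assumed noise. That test does not show how reliable the 1.5-fold counts of these arrays are. Python 3.11.15, numpy 2.4.6, pandas 2.3.3, statsmodels 0.14.6 and matplotlib 3.10.9 were used.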

Additional observations from a re-analysis of the deposited data

How the results depend on the processing

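No paired analysis was possible because each genotype has a single array, and no replicate could be left out. A change of 0.25 or more in a log2 ratio counted as a move. Of 48 alternative ratios of single miRNAs, 11 moved and 0 of those called at 1.5-fold changed sign. The centrings could not change that sign, as the called miRNAs were lower as deposited. The median log2 ratio of the 8 miRNAs, -0.13 as deposited, was -0.43 when centred on all shared rows and between -0.33 and -0.13 under the other 5. The number of the 8 that were higher in R6/2 was 2 as deposited and 1 under the 3 centrings, quantile normalization and trend removal, since miR-135a-5p turned. The count at least 1.5-fold lower stayed at 2 on all 7 scales, though the 3 centrings could not reduce it. At a 2-fold limit on the deposited values the count was 0. Relative to the median of all rows miR-128-3p was 2.12-fold lower. Among 343 bright rows rather than all rows, the percentile of miR-137-3p was 88.0 rather than 73.0. The low intensity of miR-135a-5p limits its ratio.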

Other observations

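The named rows hold both arms of 5 hairpins, a comparison added after the values had been seen. The arms of miR-9 had log2 ratios 0.054 apart. Those of miR-126a, a miRNA of endothelial cells, were 0.12 apart (0.22 for the 5p arm and 0.34 for the 3p arm), and those of miR-30a were 0.13 apart (0.0049 and 0.13). For miR-140 the arms were 0.15 apart (0.62 and 0.48). In the dim pair of miR-142a, a miRNA of blood cells, they were 0.93 apart (-0.14 and 0.79), at intensities of 22.6 to 44.2. Arms of a hairpin are separate molecules with their own turnover, so these distances are no replicate error.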
